A study of Danio rerio with 3 samples.

Results

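Pigment cell genes are the 10 zebrafish genes mitfa, sox10, ltk, tyr, dct, tyrp1b, pmela, slc24a5, oca2 and pnp4a, taken by name from the gene symbols of the array's probe annotation. All 10 were found, among 15571 genes in all, and 17 probes measured them. Of the 10, 5 had 1 probe, 3 had 2 probes (slc24a5, sox10 and pnp4a) and 2 had 3 probes (mitfa and dct). The values are log ratios of whole embryos of the wild-type strain Ab. Treated embryos spent 8 to 48 hours post fertilisation in 40 µM LY-364947, an inhibitor of the kinase of TGF-β receptor 1, in 3 biological replicates of 10 to 15 embryos each. The controls were untreated embryos of the same age, and RNA of 3 such replicates was mixed into 1 pool. Each treated replicate was set against that pool on its own 2-colour Agilent array, with the dyes swapped on the array of replicate 2. No other array was swapped, so a dye effect cannot be told apart from a difference of replicate 2 itself. This holds for every dye term given below. The deposited values of replicate 2 ran opposite to the others (r = -0.742 with replicate 1 and -0.647 with replicate 3, across probes), and its sign was turned throughout.

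A positive value is likely higher in treated embryos. The basis is the order of the sample titles, which name LY-364947 first on the arrays of replicates 1 and 3 and the untreated pool first on the array of replicate 2. The labels do not state the numerator, and a ratio of Cy5 over Cy3 would turn every sign given here. The log base is not stated either and was taken as 2, so a fold would be larger if the base were 10. The table holds ratios without intensities. The level of a gene, its signal over background and the presence of a cell type's markers could therefore not be read from it.

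Zebrafish embryos make 3 kinds of pigment cell from the neural crest. Black melanophores hold melanin in melanosomes, silvery iridophores hold plates of guanine, and yellow xanthophores hold pteridines and carotenoids. The transcription factor Sox10 is needed for all of them, Mitfa directs the melanophore fate, and the receptor kinase Ltk is needed for iridophores. The retinal pigment epithelium of the eye arises outside the neural crest but makes melanin with the same enzymes, so RNA of whole embryos joins both sources. In such RNA, fewer cells of a type and less RNA per cell cannot be told apart.

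Of the 10 pigment cell genes, 2 passed the test, pnp4a with a positive and pmela with a negative ratio, and the remaining 8 did not. The test was limma's moderated test of the mean ratio against 0 over all genes, at a Benjamini-Hochberg adjusted p of 0.05. Called members made up 20.0%, against 19.4% of all 15571 genes (9.92% positive, 9.43% negative). The share of called members was thus close to the background. The median of the 10 mean ratios was -0.0062 on the log2 scale, against -0.0013 for all genes. The median size of the ratio, without its sign, was 0.12 for the members and 0.09 for all genes. The 3 arrays had 1 sign for 7 of the 10 members (70.0%), against 52.3% of all genes. The error of the shared pool is in no SD, interval or p given here, because every ratio holds the same pool.

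**Figure D1:**
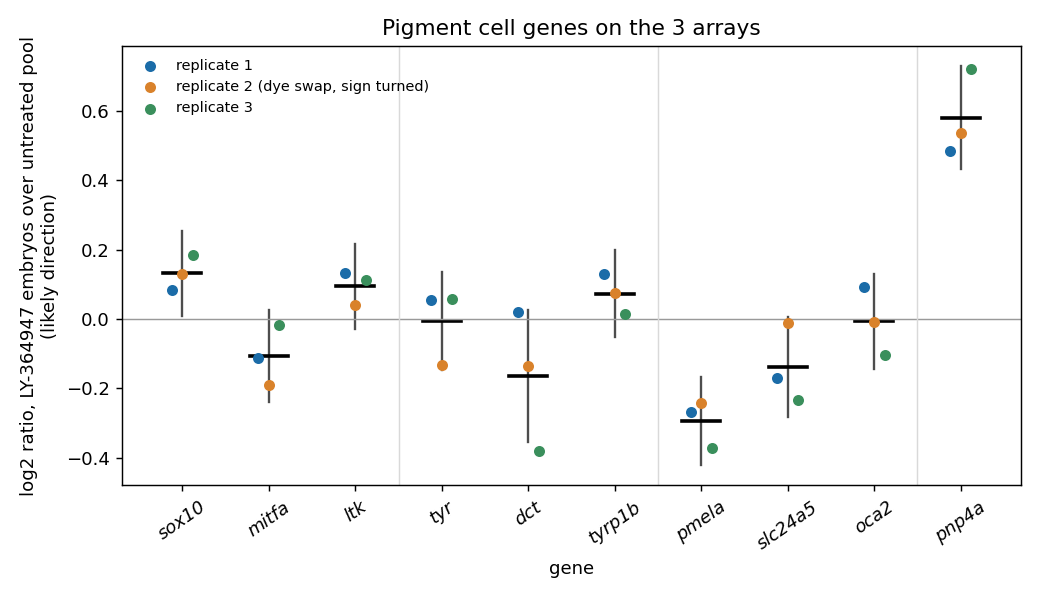
Log2 ratios of the 10 pigment cell genes on each array (points), with the mean of 3 arrays (bar) and its 95% interval from limma (vertical line); genes are grouped as regulators and receptor, melanin enzymes, melanosome proteins and iridophore enzyme. The points of pnp4a lie between 0.48 and 0.72, those of pmela between -0.37 and -0.24, and all other points between -0.38 and 0.18.

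The regulators had small ratios that did not pass. Sox10 is the transcription factor that switches on mitfa in crest cells. Its gene, sox10, had 0.08 on replicate 1, 0.13 on replicate 2 and 0.18 on replicate 3. All values were positive, with a mean of 0.13 ± 0.05 (SD, n = 3) and a 95% interval of 0.01 to 0.25. Its unadjusted p by limma was 0.0381 and its adjusted p 0.128. The probes of sox10 had means of 0.15 and 0.11, and neither passed on its own.

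Mitfa, the factor whose loss leaves zebrafish without melanophores, is known to activate the genes of melanin synthesis. The gene mitfa had -0.11 on replicate 1, -0.19 on replicate 2 and -0.02 on replicate 3. All values were negative, with a mean of -0.11 ± 0.09 (SD, n = 3), a 95% interval of -0.24 to 0.03 and a limma adjusted p of 0.246. Its probes differed from array to array. The lowest of them had -0.23, -0.35 and 0.13 on replicates 1, 2 and 3, and the highest had 0.06, -0.15 and -0.05. The remaining probe was negative on every array, with a mean of -0.12 ± 0.05. None of these 3 probes passed, and with replicate 2 unturned the gene's mean would be 0.02.

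The receptor gene ltk was positive on every array, with 0.13, 0.04 and 0.11 on replicates 1, 2 and 3. Its mean of 0.09 ± 0.05 did not pass (limma adjusted p = 0.261). The 95% interval ran from -0.03 to 0.22.

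The melanin enzymes were close to 0 or differed between arrays. Tyrosinase makes the first product of the pathway, and its gene tyr had 0.06 on replicate 1, -0.13 on replicate 2 and 0.06 on replicate 3. The replicates with treated RNA in Cy3 were positive and the dye-swapped one was negative, so that the mean of replicates 1 and 3 minus replicate 2 was 0.19. The mean of all 3 was -0.01 ± 0.11 (95% interval -0.15 to 0.14), and without replicate 2 it was 0.06. Neither mean passed, with limma adjusted p values of 0.960 and 0.747.

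Dopachrome tautomerase, a tyrosinase relative, acts on a later step. Its gene dct had 0.02 on replicate 1, -0.14 on replicate 2 and -0.38 on replicate 3. The arrays were spread more widely than for any other member, with a mean of -0.17 ± 0.20 (SD, n = 3), a 95% interval of -0.36 to 0.03 and a limma adjusted p of 0.212. Every one of its 3 probes kept the order of the arrays, with replicate 1 highest and replicate 3 lowest. The lowest probe had -0.07, -0.27 and -0.47 on replicates 1, 2 and 3. The highest had 0.10, -0.04 and -0.32. The accessions of 2 of the dct probes were not in the RefSeq gene table used here.

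Tyrosinase-related protein 1, a further melanosomal enzyme, is encoded here by tyrp1b. This gene was positive on every array, with 0.13, 0.08 and 0.01 on replicates 1, 2 and 3. Its mean of 0.07 ± 0.06 did not pass (limma adjusted p = 0.395), and the 95% interval ran from -0.05 to 0.20.

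Among the melanosome proteins, pmela was the member called on the negative side. It encodes the amyloid-forming protein that builds the fibrils on which melanin is laid down. Its single probe had -0.27 on replicate 1, -0.24 on replicate 2 and -0.37 on replicate 3. All values were negative, and the mean was -0.29 ± 0.07 (SD, n = 3), a 1.23-fold difference with a 95% interval of -0.42 to -0.17 and a limma adjusted p of 0.0107. Without replicate 2 the mean was -0.32 and did not pass (adjusted p = 0.0777), and with a dye term it was -0.28 and did not pass (adjusted p = 0.0625). By limma pmela still passed without replicate 1 (mean -0.31, adjusted p = 0.0304) and without replicate 3 (mean -0.26, adjusted p = 0.0119). Every one of these fits had 1 residual degree of freedom, against 2 in the fit of all arrays.

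The gene slc24a5 encodes the ion exchanger of the melanosome lineage that is mutated in golden zebrafish. It had -0.17 on replicate 1, -0.01 on replicate 2 and -0.23 on replicate 3. All were negative, although replicate 2 was near 0, and the mean of -0.14 ± 0.11 did not pass (limma adjusted p = 0.168). Its 2 probes gave nearly the same values on each array, with means of -0.15 and -0.13. The gene oca2, for a melanosomal membrane protein that supports melanin synthesis, had 0.09, -0.01 and -0.10. Its arrays lay on both sides of 0, and their mean of -0.01 ± 0.10 did not pass (adjusted p = 0.956). Without replicate 3 the mean of oca2 was 0.04. The accession of its single probe was not in the gene table used here.

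Over the 6 genes of melanin enzymes and melanosome proteins, 1 was called (16.7%, against 19.4% of all genes), and the median of the mean ratios was -0.07. For the 8 members that did not pass, the 95% intervals reached at most 0.36 from 0 on either side, a 1.28-fold difference, which was the lower bound for dct. Called genes in general had a median size of 0.33, and the smallest size among them was 0.18. The intervals of dct, mitfa, slc24a5, sox10, tyrp1b and ltk all reach that smallest size, so a difference of this size is not excluded for them. A missed threshold does not show that these genes had equal levels in treated and untreated embryos.

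**Figure D2:**
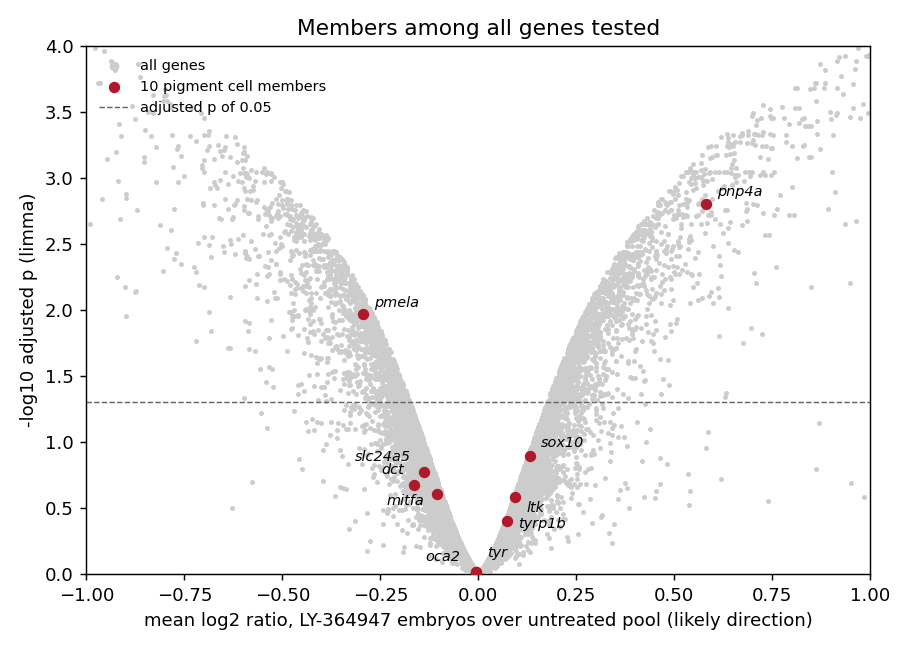
Mean log2 ratio (horizontal axis) against -log10 of the limma adjusted p (vertical axis) for all genes (grey) and the 10 pigment cell genes (red), with 105 genes outside the axes. Above the dashed threshold lie pnp4a at 0.58 and pmela at -0.29, and the other 8 members lie below it.

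The largest ratio of a member was that of pnp4a, a purine nucleoside phosphorylase gene used as an iridophore marker. It had 0.48 on replicate 1, 0.54 on replicate 2 and 0.72 on replicate 3. All values were positive, and the mean of 0.58 ± 0.12 (SD, n = 3) was a 1.50-fold difference with a 95% interval of 0.43 to 0.73 and a limma adjusted p of 0.00156. Its size exceeded that of 96.9% of all genes. It was called in every fit that left out a replicate and in the fit with a dye term.

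The 2 probes of pnp4a disagreed in size. The higher one, A_15_P160526, had 0.66, 0.92 and 1.22 on replicates 1, 2 and 3, a mean of 0.93 ± 0.28 (SD, n = 3) and a 1.91-fold difference. The lower one, A_15_P118813, had 0.31, 0.15 and 0.22, a mean of 0.23 ± 0.08 and a 1.17-fold difference. Both were positive on every array, and the higher probe exceeded the lower by 0.35, 0.76 and 1.00 on the 3 arrays. Adjusted over all 43603 probes by limma, the higher probe passed (adjusted p = 0.00306) and the lower one did not (adjusted p = 0.0574). The call of pnp4a as a gene therefore averages probes whose sizes differed, and the size depends on the probe taken. The annotation gives both the same transcript, and probe sequences were not used here, so binding to related transcripts was not checked.

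Of the 17 probes of the members, 2 passed when each was tested by itself, the pmela probe (adjusted p = 0.0228) and the higher pnp4a probe, against 10.4% of all 43603 probes (5.46% positive, 4.91% negative). At the level of probes, the count was 1 without replicate 1, 0 without replicate 2 and 3 without replicate 3. The unadjusted p by limma was under 0.05 for 4 member probes without replicate 2. The share of all probes was counted in the main fit only. The counts with a replicate left out therefore have no background beside them and are not a result about the members.

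**Figure D3:**
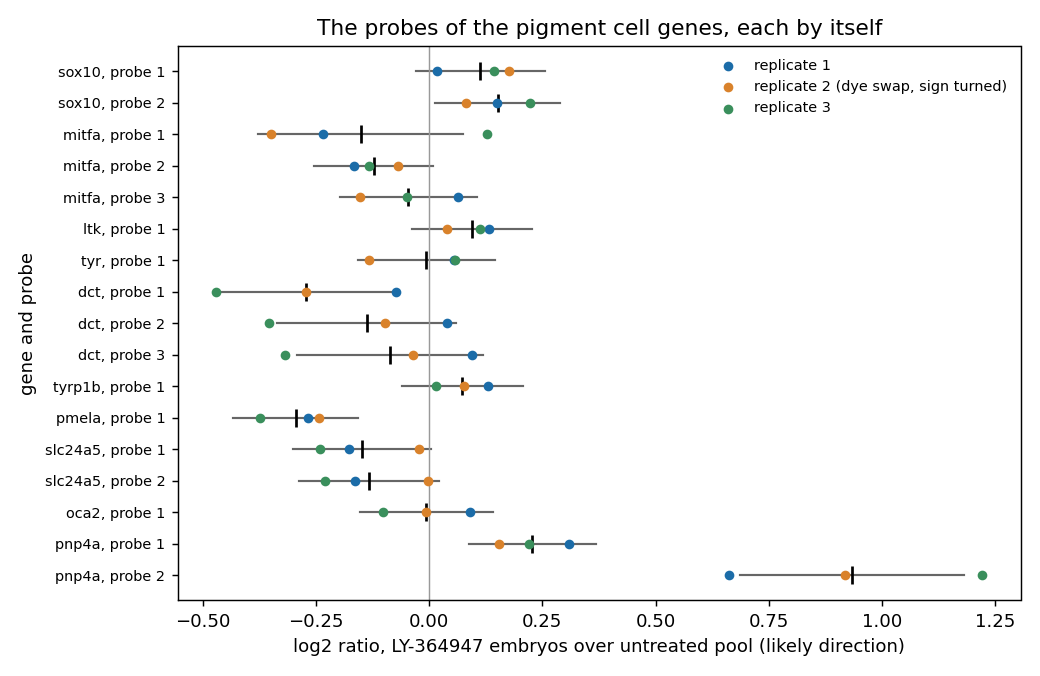
Log2 ratios of each of the 17 probes (points, 1 colour per array), with the mean (tick) and its 95% interval from limma (line); probes of a gene are numbered from the lowest mean. The 3 dct probes share the order of the arrays, the slc24a5 probes nearly coincide, and the pnp4a probes stand at 0.23 and 0.93.

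Other genes of each pigment cell type were counted from lists that leave the members out. The lists used here and below were written with earlier results of these data known. The shares called in them therefore do not test the lists. Of 21 measured genes of melanin synthesis and the melanosome, 5 passed, 3 of them positive and 2 negative, and 16 did not, so that 23.8% were called against 19.4% of all genes. The genes rab38a and mlpha lay on the negative side with pmela. Rab38 brings enzymes to the melanosome, and rab38a had -0.14, -0.38 and -0.47 on replicates 1, 2 and 3 (mean -0.33 ± 0.17, limma adjusted p = 0.0206). Melanophilin links melanosomes to a myosin motor, and mlpha had -0.18, -0.37 and -0.30 (mean -0.28 ± 0.09, adjusted p = 0.0163). Without replicate 2, neither passed (means of -0.31 and -0.24), and with a dye term neither passed (means of -0.34 and -0.30). The single probe of rab38a had an accession outside the gene table used here.

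On the positive side of that list were pmelb, hps1 and vps16. The gene pmelb, the paralog of pmela, had 0.56 on each of replicates 1 and 2 and 0.59 on replicate 3, with a mean of 0.57 ± 0.02 (adjusted p = 0.000675). On every array pmelb was above pmela, by 0.83, 0.80 and 0.97, and each of these genes was measured by 1 probe only. Whether the 2 paralogs were expressed in the same cells was not tested. An exact sign-flip test over 3 arrays cannot give a two-sided p under 0.25, which is the value of this difference. The other 2 act in organelle biogenesis. The Hermansky-Pudlak gene hps1 averaged 0.32 ± 0.07 (adjusted p = 0.00747) and lost its call without replicate 2 at a mean of 0.34, while vps16 averaged 0.25 ± 0.10 (adjusted p = 0.0282) and lost it without replicate 2 at 0.23 and with a dye term at 0.25. The transporter gene slc45a2, which like oca2 and slc24a5 is needed for full melanin, had -0.06 ± 0.03 and did not pass (adjusted p = 0.471).

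The retinal pigment epithelium shares the melanin genes, so genes from a list for that tissue are given beside them. Whether other cells of the eye also express the listed genes was not tested. The listed genes rlbp1a, lratb.1 and best1 were not in the annotation. The paralog rlbp1b was measured without rlbp1a, and whether it marks this tissue was not tested. Of 11 measured genes of that list, 6 passed, 5 of them positive and 1 negative, and 5 did not. The share called was 54.5%, against 19.4% of all genes, and the list's median ratio was 0.27. The list was written with earlier results of these data known, so this share does not test it. The genes that passed on the positive side belong to retinoid handling and eye regulation. The list holds none of the members, so the absence of tyr, dct and tyrp1b from it was set by the list. The visual cycle isomerase gene rpe65a had 1.87, 1.69 and 1.70 on replicates 1, 2 and 3 (mean 1.76 ± 0.10, limma adjusted p = 2.05e-05). The retinaldehyde-binding protein gene rlbp1b averaged 0.94 ± 0.04, the retinol dehydrogenase gene rdh5 0.83 ± 0.12, the retinol receptor gene stra6 0.46 ± 0.03 and the transcription factor gene otx2b 0.54 ± 0.16. On the negative side was otx2a at -0.40 ± 0.13 (adjusted p = 0.00668), which did not pass without replicate 2 (mean -0.33). The second zebrafish mitf gene, mitfb, had -0.09 ± 0.16 and did not pass (adjusted p = 0.424). The marker gene rgra had 0.36, 0.51 and -0.06 on replicates 1, 2 and 3. Its mean of 0.27 ± 0.30 did not pass either (limma adjusted p = 0.126).

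None of the melanin enzyme genes tyr, dct and tyrp1b passed beside these visual cycle genes. The same was true of 12558 of all 15571 genes. The gene rpe65a had the largest ratio of its list. On the 3 arrays it exceeded tyr by 1.82, 1.82 and 1.65. The exact two-sided sign-flip p was again 0.25, the smallest that 3 arrays allow. Which share of the melanin transcripts came from the eye and which from melanophores was not tested.

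**Figure D4:**
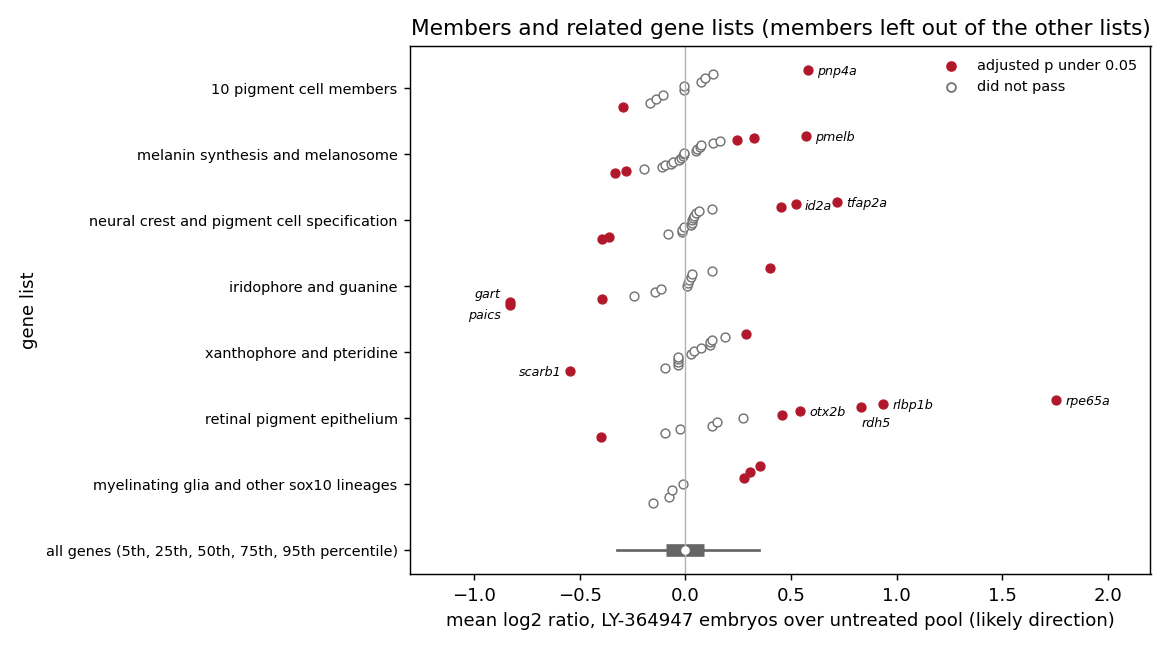
Mean log2 ratio of each measured gene (points) in the 10 members and in 6 related lists without the members, with filled points for genes past a limma adjusted p of 0.05 and the spread of all genes in the lowest row. The members stay between -0.29 and 0.58, while rpe65a stands at 1.76 and paics and gart at -0.83.

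For iridophores, pnp4a passed and the regulator genes ltk, tfec and ednrba did not. The listed genes alkal1, alkal2a, alkal2b and tjp1a were not in the annotation. The transcription factor gene tfec, active in iridophores and in the retinal pigment epithelium, had 0.13 ± 0.03 and did not pass (limma adjusted p = 0.132), and the endothelin receptor gene ednrba had 0.03 ± 0.04 (adjusted p = 0.710). On the 3 arrays pnp4a exceeded ltk by 0.35, 0.50 and 0.61, and tfec by 0.39, 0.39 and 0.58. The exact two-sided p was 0.25 for both, the smallest possible. Of the 4 iridophore markers pnp4a, ltk, tfec and ednrba, 1 passed, against 19.4% of all genes. All 4 had a positive mean, while the median of all genes was -0.0013. The mean of ednrba was close to 0, with -0.01 on replicate 2, and its 2 probes had means of -0.02 and 0.09.

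Of the enzymes that supply purines for the guanine plates, those that passed had ratios of both signs. Of 13 measured genes in the iridophore and guanine list without members, 4 passed, 1 of them positive and 3 negative, and 9 did not (30.8% called, against 19.4% of all genes). The purine synthesis genes paics (-0.83 ± 0.07, limma adjusted p = 0.000234), gart (-0.83 ± 0.10) and ppat (-0.39 ± 0.04) were those on the negative side, and these enzymes also serve every dividing cell. The gene impdh1b, for an enzyme of the guanine branch, had 0.40 ± 0.19 (adjusted p = 0.0140) and did not pass with a dye term (mean 0.36, adjusted p = 0.0520). The gene atic, of the last steps of purine synthesis, had -0.14 ± 0.07 and did not pass, and its 3 probes ranged from -0.66 to 0.29. Tested singly by limma, the lowest probe passed as negative (adjusted p = 0.00207) and the highest as positive (adjusted p = 0.0409). The accession of the highest probe was outside the gene table used here. The mean of atic thus averages probes called in opposite directions. The phosphoribosyl pyrophosphate synthetase gene prps1a had -0.24 ± 0.17 and did not pass (adjusted p = 0.0631), although it passed without replicate 3 (mean -0.32, adjusted p = 0.00644).

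Most xanthophore genes did not pass, as was the case for most of all genes. Of 14 measured genes of the xanthophore and pteridine list, 2 passed, 1 positive and 1 negative, and 12 did not (14.3% called, against 19.4% of all genes, with a median of 0.03). The marker gene gch2, for the enzyme that opens pteridine synthesis, had 0.20, -0.20 and 0.12 on replicates 1, 2 and 3. Its sign on the dye-swapped array differed from the others, and its mean was 0.04 ± 0.21 (limma adjusted p = 0.793). The genes xdh (0.12 ± 0.07), csf1ra (0.07 ± 0.08) and pax7a (0.03 ± 0.07) did not pass either, so that 0 of 4 measured xanthophore markers passed by limma. The unadjusted p by limma was under 0.05 for 0 of these 4, and for 5054 of all 15571 genes. The pteridine enzyme genes pts (-0.10 ± 0.05) and qdpra (0.19 ± 0.26) and the carotenoid-cleaving enzyme gene bco1 (0.13 ± 0.02) did not pass.

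The called genes of that list act beyond xanthophores. The lipoprotein receptor gene scarb1, known for carotenoid uptake, had -0.36, -0.52 and -0.75 on replicates 1, 2 and 3 (mean -0.54 ± 0.20, limma adjusted p = 0.00462). The sugar transporter family gene slc2a15b, needed for pigment cells in medaka, had 0.29 ± 0.08 (adjusted p = 0.0132). Of its 2 probes 1 passed, and its call was lost without replicate 1 (mean 0.25), without replicate 2 (mean 0.33) and with a dye term (mean 0.27).

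Regulators of the neural crest were split. Of 17 measured genes for crest and pigment cell specification other than the members, 5 passed, 3 of them positive and 2 negative, and 12 did not (29.4% called, against 19.4% of all genes, with a median of 0.03). The AP-2 factors act in crest and melanophore development and also in the epidermis. Their gene tfap2a had 0.86, 0.61 and 0.68 on replicates 1, 2 and 3 (mean 0.72 ± 0.12, limma adjusted p = 0.000692), and all 4 of its probes passed. Its relative tfap2e averaged 0.45 ± 0.06 (adjusted p = 0.00202). The gene id2a, for an inhibitor of bHLH factors, averaged 0.52 ± 0.03, although its 3 probes ranged from 0.05 to 0.76.

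On the negative side, pax3a, which acts in the early crest and the dorsal neural tube, had -0.27, -0.42 and -0.40 (mean -0.36 ± 0.08, limma adjusted p = 0.00544). Of its 4 probes 2 passed, over a range of -0.70 to -0.06, and the gene did not pass without replicate 2 (mean -0.34). Both pax3a probes that passed (-0.70 and -0.56) had accessions outside the gene table used here. The 2 with accessions inside it (-0.12 and -0.06) did not pass. The gene sox9b averaged -0.39 ± 0.28 (adjusted p = 0.0383) with -0.72 on replicate 3. Of its 2 probes 1 passed, and the gene did not pass without replicate 2 (mean -0.47) or with a dye term (mean -0.35). The sox9b probe that passed (-0.53) had an accession outside the gene table, and the one inside it (-0.26) did not pass. The crest markers crestin (-0.02 ± 0.05) and foxd3 (0.06 ± 0.24) and the melanophore receptor gene kita (-0.08 ± 0.06) did not pass.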

How the data were processed

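The deposited values, 1 for each probe on each array, were read from their range and the 2-channel labels as log2 ratios made by the authors. The software named in the submitters' processing notes is Partek. The labels and the table do not say how background was corrected or arrays normalised, nor the log base or numerator. Of 43648 probes, 45 controls were left out. Of the 43603 probes left, the platform annotation named 1 gene for 23717 and no gene for 19886. Probes of 1 Entrez gene were averaged, giving 15571 genes, 15416 of them found in the RefSeq table of GRCz12tu, where 0 symbols differed. The sign of replicate 2 was turned. Limma 3.58.1 in R 4.3.3 (lmFit, then eBayes, 2 residual degrees of freedom) tested the mean ratio of 3 arrays against 0, with Benjamini-Hochberg adjustment over all genes, or over all probes for single probes. The untreated pool counts as 1 control sample. The number of arrays limits the precision. The code was tested on simulated data.

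The members and lists were chosen with earlier results of these data known. Named genes were the members, their cell type markers and up to 6 genes of each other list with the smallest adjusted p. The genes crestin, foxd3, kita and atic were chosen after their values were seen. Other settings tried were centring, scaling and quantile normalisation of the arrays, a dye term, other priors, probe medians, other thresholds, replicate 2 unturned, and each replicate left out. Plots used matplotlib 3.10.9 in Python 3.11.15.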

Additional observations from a re-analysis of the deposited data

How the results depend on the processing

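Counts of calls were 3013 for all genes, 2 for the members, 2 for the 17 member probes and 25 for the 79 measured genes of the other lists. Leaving out 1 replicate gave 1041 to 3693, 1 to 2, 0 to 3 and 15 to 28, the lowest always without replicate 2. With a dye term they were 1465, 1, 1 and 17, and at an adjusted p of 0.01 they were 1434, 1, 1 and 17. A minimum change of 0.3 log2 units gave 1774, 1, 1 and 21. At an adjusted p of 0.1, 4 member probes passed. Shares of all probes were counted in the main fit only. An ordinary one-sample statistic called 0 in each, with 3417, 3, 4 and 23 at an unadjusted p of 0.05. Limma with replicate 2 as deposited also called 0 in each, with 34, 0, 0 and 2 at an unadjusted p of 0.05. The stricter threshold and the minimum change can only remove calls, because they filter the same fit. The cause of the other losses, fewer arrays or degrees of freedom included, was not tested. Means of uncalled members changed sign in 4 cases. Leaving out 1 replicate gave -0.038 to 0.057 for tyr (positive without replicate 2) and -0.055 to 0.042 for oca2 (positive without replicate 3), and with replicate 2 unturned tyr had 0.082 and mitfa 0.020. Centring, scaling, quantile normalisation, the trended prior and probe medians left the members' count at 2. No paired analysis was possible because there is 1 treated group and every array shares the untreated pool.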

Other observations

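Sox10 also acts in glia and in enteric and autonomic neurons, and 7 of 15 listed genes of these lineages were measured. This list too was written with earlier results of these data known, so its share called does not test it. By limma 3 of the measured genes passed (42.9%, against 19.4% of all genes), all positive, and 4 did not. Whether other tissues of the whole embryo express these genes, hand2 among them, was not tested. The oligodendrocyte and motor neuron factor gene olig2 had 0.40, 0.29 and 0.36 on replicates 1, 2 and 3 (mean 0.35 ± 0.06, limma adjusted p = 0.00503). The co-receptor gene gfra1a averaged 0.31 ± 0.11 (adjusted p = 0.0135) and did not pass without replicate 2 (mean 0.28) or with a dye term (mean 0.32). The 2 gfra1a probes that passed had accessions outside the gene table used here, and the probe inside it (0.13) did not pass. The transcription factor gene hand2 averaged 0.28 ± 0.16 (adjusted p = 0.0358), although neither of its 2 probes passed on its own and the call was lost without replicate 1 or replicate 2 (mean 0.23 in both) and with a dye term (mean 0.30). The myelin gene mbpa had -0.01 ± 0.04, and the receptor gene ret, of enteric neurons, had -0.06 ± 0.08, and neither passed. All 4 mbpa probes had accessions outside the gene table used here, and their means ran from -0.14 to 0.09. The genes nkx2.2a (-0.15 ± 0.11) and erbb2 (-0.08 ± 0.09) did not pass either.

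In the signs as deposited, before any was turned, tyr was positive on every array, at 0.06, 0.13 and 0.06 on replicates 1, 2 and 3. The same held for gch2, at 0.20, 0.20 and 0.12, and for qdpra, at 0.245, 0.10 and 0.41. It also held for ednrba, at 0.04, 0.01 and 0.07. These genes are examples, and the share of all genes with this pattern was not counted. The mean of replicates 1 and 3 minus replicate 2, after turning, was 0.19 for tyr, 0.36 for gch2, 0.43 for qdpra and 0.07 for ednrba. It was -0.19 for slc24a5. The dye coefficient passed limma for 0 genes, in a fit with 1 residual degree of freedom. Only replicate 2 was swapped, so this coefficient cannot be told apart from that replicate.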
